A study of Mus musculus with 12 samples.

Results

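The genes described here mark hormone-sensing luminal cells of the mammary gland or carry their signals: Pgr, Esr1, Greb1, Tbx3, Tnfsf11, Wnt4, Foxa1, Cited1, Prlr and Areg. Members were chosen by gene symbol, taking every probe set that the platform annotation gives to one of these symbols. This gave 21 probe sets of 8 genes, out of 45037 probe sets other than controls and 18193 named genes. No probe set carried the symbols Prlr or Areg in the annotation used, and both genes were not analysed here. The array holds several probe sets for many genes, each a set of short probes summarised to 1 signal. A filter on low signal (mean over the 12 arrays at or above log2 6.04, the 30th percentile) kept 16 of the 21, and with them all 8 genes, among 31526 probe sets tested.

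Transcripts were measured by Affymetrix array in whole mammary tissue taken from 12 mice 6 days after a mating plug, with 3 mice in each of 4 genotypes on a mixed C57BL/6, FVB and 129 background. Mice labelled Stat5a-/- lacked Stat5a and had 2 Stat5b alleles, and Stat5ab+/null mice had 1 allele of each gene. Mice labelled Stat5abnull/Stat5a- kept 1 Stat5b allele and no Stat5a (single-Stat5b), and mice labelled Stat5abnull/Stat5b- kept 1 Stat5a allele and no Stat5b (single-Stat5a). No group had all alleles of both genes, and each comparison sets genotypes side by side that have the same total of alleles but differ in how many are Stat5a and how many Stat5b. Sample labels that all 12 share also speak of sorted cells and of an Mx1-Cre transgene activated by PolyIC, and whether either applies to these arrays cannot be settled from them. The labels do not say how independent the mice of a group were, and p-values measure the spread between these samples only.

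In the mammary gland, the receptors for estrogen and progesterone lie in a subset of luminal cells. These cells answer the hormones and pass the message to their neighbours through secreted or membrane-bound factors: amphiregulin after estrogen, and RANK ligand (Tnfsf11) and Wnt4 after progesterone. Early in pregnancy this relay drives side branching and the growth of alveolar cells. Prolactin acts through its receptor and Stat5 in the same epithelium.

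The arrays formed a pair of sets that follow the allele total. Pearson r between arrays, across probe sets, was 0.948 to 0.994 within a set and 0.818 to 0.883 between sets, and actin's 3' control probe set exceeded its 5' one by 2.16 to 3.78 log2 units on the 1-allele arrays and by 0.13 to 0.27 on the 2-allele arrays. Array set and allele total cannot be told apart, so the groups were compared within a set. The array single-Stat5a 2 was rich in skeletal muscle transcripts: the mean of 12 muscle genes stood at 13.63 there, against 6.59 to 10.99 on the other 11. The higher of the Stat5a probe sets fell by 1.23 in single-Stat5b against single-Stat5a (limma adjusted p = 0.00251). Between the arrays labelled Stat5a-/- and Stat5ab+/null it differed by 0.39 and the second Stat5a probe set by 0.56, both uncalled and both higher in Stat5a-/-, against the labels. The Stat5b probe sets differed by -0.25 and -0.31 there. This also goes against the labels, by which Stat5a-/- has 2 Stat5b alleles and Stat5ab+/null 1. In single-Stat5b minus single-Stat5a the Stat5b probe sets differed by 0.64 and 0.20, and none of these Stat5b differences was called. Genotypes are given as labelled, and the sample titles carry unexplained letters, ABB on the arrays labelled Stat5a-/- and AAB on those of Stat5ab+/null. Read as allele counts these letters would go against the labels, and the 2-allele comparison would then not set the named genotypes side by side. With A read as Stat5a and B as Stat5b, the Stat5a and Stat5b probe sets ran against such counts too. Without the position of these probes in the targeted genes, their signal is no full check of the genotypes.

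The 250 bases before the start of a RefSeq transcript (GRCm38.p6) are shown for the genes that stood furthest apart between the 2-allele groups, Wnt4 (chr4:137277385-137277634, plus strand) and Foxa1 (chr12:57546112-57546361, minus strand). A window of Esr1 (chr10:4709908-4710157, plus strand) is added because it holds the letters TTCNNNGAA that Stat5 dimers are known to bind. Capitals mark motif matches. Every sequence runs 5′ to 3′ along the gene.
Wnt4: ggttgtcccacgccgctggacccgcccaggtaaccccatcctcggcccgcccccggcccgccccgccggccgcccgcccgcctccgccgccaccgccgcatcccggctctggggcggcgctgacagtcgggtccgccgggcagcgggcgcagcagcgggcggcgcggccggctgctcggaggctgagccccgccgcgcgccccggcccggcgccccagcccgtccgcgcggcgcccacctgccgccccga
Foxa1: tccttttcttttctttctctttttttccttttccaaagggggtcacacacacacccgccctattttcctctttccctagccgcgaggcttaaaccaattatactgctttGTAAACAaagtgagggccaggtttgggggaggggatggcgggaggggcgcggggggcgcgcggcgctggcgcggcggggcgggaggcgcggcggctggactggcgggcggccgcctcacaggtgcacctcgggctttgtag
Esr1: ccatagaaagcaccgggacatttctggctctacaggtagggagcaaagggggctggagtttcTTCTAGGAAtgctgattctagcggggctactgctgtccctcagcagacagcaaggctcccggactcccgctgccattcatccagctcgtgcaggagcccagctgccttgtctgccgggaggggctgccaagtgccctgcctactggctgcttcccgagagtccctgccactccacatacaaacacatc

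Windows were given for 7 of the 8 genes, 11 in all, with none for Tbx3, and 5 motifs were searched on both strands. TTCNNNGAA lay in 7.02% of all 32851 windows of this length, and among the members in the Esr1 window as TTCTAGGAA. The forkhead motif TGTTTAC, of the family that Foxa1 belongs to, lay in 3.17% of windows and, as its reverse complement GTAAACA, in that of Foxa1. The core ACANNNTGT bound by the progesterone receptor lay in 5.84% of windows and in 1 of the 2 windows of Greb1 as ACAACTTGT. Neither the estrogen response element (GGTCA and TGACC with any 3 bases between, 0.0639% of windows) nor the T-box motif AGGTGTGA (1.12%) was found in a member window. A match describes the letters and is no measured site.

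Among the receptors, Pgr, which encodes the progesterone receptor, had its highest signals in single-Stat5b. Its brightest probe set (1439527_at) read 9.84, 10.14 and 10.06 on the log2 scale in the arrays labelled Stat5a-/-, against 10.01, 10.28 and 10.51 in Stat5ab+/null. The same probe set read 10.87, 11.63 and 10.46 in single-Stat5b, against 10.58, 9.98 and 10.32 in single-Stat5a. The groups overlapped in both comparisons, and 1 single-Stat5b mouse at 11.63 stood above all other arrays. The log2 difference of Pgr was 0.69 (SE 0.27, limma adjusted p = 0.302) for single-Stat5b minus single-Stat5a and -0.25 (SE 0.27, adjusted p = 1.00) for Stat5a-/- minus Stat5ab+/null. The other Pgr probe set past the filter differed by 0.21 (-0.08 without the muscle-rich array) and -0.27 in these comparisons. Another, under the filter, read 7.18, 5.86 and 5.63 in single-Stat5b against 5.68, 4.75 and 4.85 in single-Stat5a.

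Esr1, the gene of estrogen receptor alpha, stood close between the groups by its brightest probe set. It read 12.13, 12.23 and 11.71 in the arrays labelled Stat5a-/- and 12.17, 11.75 and 12.01 in Stat5ab+/null. In single-Stat5b it read 12.37, 12.10 and 12.17, against 12.30, 12.43 and 12.34 in single-Stat5a. Ranges of this probe set overlapped in both comparisons. Its differences were 0.05 (95% interval -0.35 to 0.45) for Stat5a-/- minus Stat5ab+/null and -0.14 (-0.54 to 0.26) for single-Stat5b minus single-Stat5a. Neither passed. A second Esr1 probe set gave 0.08 and 0.12 with wider intervals (-0.76 to 0.92 and -0.72 to 0.96). A dim Esr1 probe set under the filter, 1421244_at, read 4.41, 4.15 and 4.48 in single-Stat5b, against 4.63, 4.80 and 5.04 in single-Stat5a. These groups did not overlap, at a difference of -0.48 (limma unadjusted p = 0.0568). Between the 2-allele groups it differed by 0.06, with overlap.

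Foxa1 encodes the forkhead factor that opens chromatin for the estrogen receptor. Its single probe set read 10.75, 10.76 and 10.60 in the arrays labelled Stat5a-/-, against 11.27, 11.17 and 11.77 in Stat5ab+/null. Every Stat5a-/- array lay below every Stat5ab+/null array, at a difference of -0.70 (SE 0.24, 1.62-fold lower), which did not pass over all probe sets (adjusted p = 1.00, unadjusted p = 0.0131). In single-Stat5b, Foxa1 read 11.22, 11.50 and 11.27, against 11.22, 10.36 and 11.23 in single-Stat5a. The low value is that of the muscle-rich array. The difference of 0.40 (adjusted p = 0.614) became 0.11 without it.

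Tbx3, a T-box repressor needed for mammary placode and duct growth, had 4 probe sets past the filter. The brightest read 7.90, 7.60 and 7.52 in the arrays labelled Stat5a-/- and 8.00, 7.88 and 8.66 in Stat5ab+/null. It read 11.19, 10.82 and 9.96 in single-Stat5b, against 9.73, 9.53 and 10.16 in single-Stat5a. Ranges overlapped in both comparisons, at differences of -0.51 (SE 0.31) and 0.85 (SE 0.31, adjusted p = 0.235). The other 3 probe sets gave -0.57 to 0.00 for Stat5a-/- minus Stat5ab+/null and -0.10 to 0.31 for single-Stat5b minus single-Stat5a. One of them, 1445757_at, did not overlap between the 2-allele groups, with 7.93, 7.91 and 7.58 in Stat5a-/- arrays against 8.44, 8.24 and 8.44 in Stat5ab+/null.

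Greb1, an estrogen-induced cofactor of the estrogen receptor, was low, with 2 of its 4 probe sets past the filter. The brighter of these read 6.42, 6.70 and 6.51 in the arrays labelled Stat5a-/-, against 7.07, 6.86 and 7.28 in Stat5ab+/null. These groups did not overlap, at a difference of -0.53 (SE 0.29, adjusted p = 1.00). In single-Stat5b it read 7.39, 6.15 and 7.52, against 6.09, 6.23 and 6.10 in single-Stat5a. Mouse 2 of single-Stat5b lay among the single-Stat5a mice and the other two stood more than 1 log2 unit above them. The Greb1 difference was 0.88 (SE 0.29, adjusted p = 0.185), and without that mouse 1.31 (adjusted p = 9.03e-04). Since this mouse lay furthest from its group for Greb1, leaving it out had to raise the difference and narrow the spread, and that p is no support for it. The second probe set past the filter gave -0.06, in the other direction. A dim Greb1 probe set under the filter, 1445323_at, read 4.32, 4.66 and 4.48 in single-Stat5b, against 4.04, 3.75 and 3.91 in single-Stat5a, without overlap.

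Cited1 encodes a transcriptional coactivator found in estrogen receptor-positive luminal cells. It read 11.52, 12.17 and 11.71 in the arrays labelled Stat5a-/-, against 11.26, 11.65 and 11.23 in Stat5ab+/null. In single-Stat5b it read 10.12, 9.88 and 11.44, against 11.37, 10.15 and 10.36 in single-Stat5a. A high mouse in each 1-allele group made the spread of Cited1 the widest of the 8 genes in single-Stat5b (SD 0.84). The differences were 0.42 (SE 0.39) for Stat5a-/- minus Stat5ab+/null and -0.14 (SE 0.39) for single-Stat5b minus single-Stat5a, and neither passed.

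**Figure D1:**
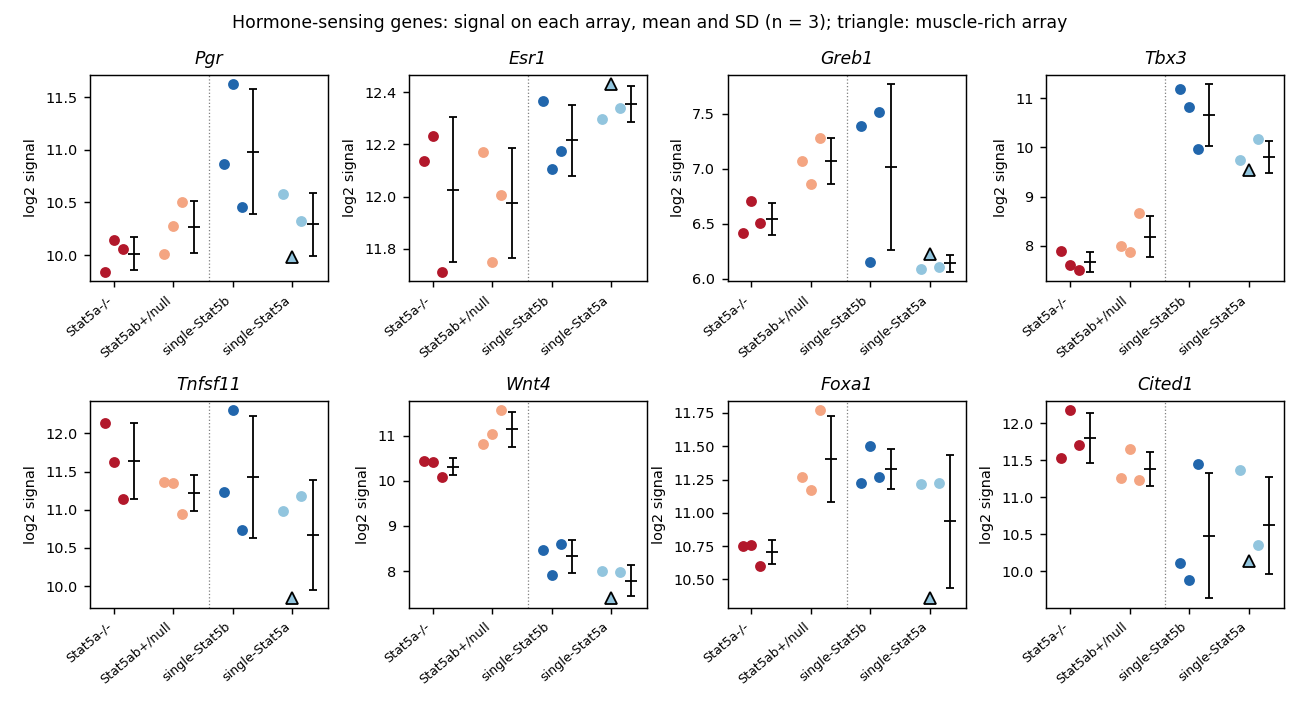
Log2 signal (y axis) of each member gene's brightest probe set on every array, with genotypes along the x axis. Points are single mice, bars are the mean and SD (n = 3), the dotted line parts the array sets and the black-edged triangle is the muscle-rich array single-Stat5a 2. Wnt4, Foxa1 and Greb1 lie lower on all 3 Stat5a-/- arrays than on any Stat5ab+/null array. For Greb1, 2 of the single-Stat5b mice lie above all single-Stat5a mice, as is also so for Pgr, Tbx3, Tnfsf11, Wnt4 and Foxa1.

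Of the paracrine signals, Wnt4, the ligand that progesterone induces for side branching, stood furthest apart between the 2-allele groups. Its brighter probe set (1450782_at) read 10.43, 10.41 and 10.09 in the arrays labelled Stat5a-/-, against 10.82, 11.03 and 11.56 in Stat5ab+/null. The second (1441687_at) read 9.50, 9.40 and 9.08 in the arrays labelled Stat5a-/-, against 9.82, 9.96 and 10.43 in Stat5ab+/null. Both separated the groups without overlap. Their differences were -0.83 (SE 0.25, 1.78-fold lower) and -0.74 (SE 0.26), with an unadjusted p = 0.00627 for the first and adjusted p = 1.00 for both by limma. In single-Stat5b, the brighter Wnt4 probe set read 8.47, 7.91 and 8.61, against 7.99, 7.40 and 7.98 in single-Stat5a. These ranges overlapped, at 0.54 (SE 0.25, adjusted p = 0.437), and the second probe set gave 0.05.

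Tnfsf11 encodes RANK ligand, the progesterone-induced signal for alveolar progenitor growth. It read 12.14, 11.62 and 11.14 in the arrays labelled Stat5a-/-, against 11.36, 11.35 and 10.94 in Stat5ab+/null. In single-Stat5b it read 11.24, 12.30 and 10.74, against 10.99, 9.84 and 11.18 in single-Stat5a. Mouse 2 of single-Stat5b was the highest of all 12 and the muscle-rich array the lowest. The differences were 0.41 (SE 0.41, adjusted p = 1.00) and 0.75 (SE 0.41, adjusted p = 0.546), and the second was 0.34 without the muscle-rich array. The other Tnfsf11 probe set (1451944_a_at) differed by 0.21 and 0.25, and its 0.25 turned to -0.34 without the muscle-rich array. T cells and lymph node stroma can also make RANK ligand: the mean of 6 T cell genes was 6.55 to 7.99 in the arrays labelled Stat5a-/- and 6.72 to 9.21 in Stat5ab+/null, and 7.21 to 8.99 in single-Stat5b and 7.36 to 7.87 in single-Stat5a. The mean of 3 lymph node stroma genes was 7.37 to 9.90 in the arrays labelled Stat5a-/- and 7.58 to 11.41 in Stat5ab+/null, and 7.88 to 9.19 in single-Stat5b and 7.35 to 8.09 in single-Stat5a. Their part in the Tnfsf11 signal was not tested.

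In Stat5a-/- minus Stat5ab+/null, 5 of the 8 genes lay below 0 and 3 above, a share close to that of all 14198 genes, of which 33.6% lay above 0. The median difference of the 8 was -0.38, beside -0.08 over all genes. It was -0.22 with arrays centred on luminal genes, -0.18 with muscle and B cell means as covariates and -0.20 without mouse 3 of Stat5ab+/null. Over the 16 probe sets, 10 lay below 0, with a median of -0.26. None of the 16 probe sets passed limma at an adjusted p under 0.05, where 0.00952% of all probe sets passed, and 3 had an unadjusted p under 0.05, where 2.84% did. Groups did not overlap for 5 of the 16, all 5 lower (2 of Wnt4 and 1 each of Foxa1, Tbx3 and Greb1), against 11.3% lower and 17.5% in either direction over all probe sets. Probe sets of 1 gene share their transcript. With 3 mice against 3, an exact permutation test of a single value cannot go below p = 0.1.

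General luminal genes stood close to 0 in this comparison. Of 12 general luminal genes such as Krt8 and Krt18, keratins of simple epithelium, 11 lay below 0 with a median of -0.11, and none passed. Centring each array on the mean of these luminal genes left Wnt4 at -0.66, Foxa1 at -0.53 and Greb1 at -0.36, on a scale where the median of all genes was 0.09. In bulk tissue, fewer hormone-sensing cells and less RNA per cell cannot be told apart. The B and plasma cell mean differed widely among mice of one genotype (6.54 to 11.62 in the arrays labelled Stat5a-/- and 7.55 to 12.17 in Stat5ab+/null). With it and the muscle mean as covariates Wnt4 differed by -0.75 and Foxa1 by -0.58, neither passing.

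In single-Stat5b minus single-Stat5a, 6 of the 8 genes lay above 0, with a median of 0.61 beside -0.03 over all genes, of which 45.9% lay above 0. This rests on the brightest probe set of each gene: over all 16, 12 lay above 0 with a median of 0.28, which was 0.07 without the muscle-rich array (9 above 0) and -0.08 with arrays centred on luminal genes (6 above 0). None of the 16 member probe sets passed, where 2.89% of all probe sets did. Of the 16, 3 had an unadjusted p under 0.05 (Pgr, Greb1 and Tbx3, the brightest probe set of each), where 11.8% of all probe sets did, and none separated the groups without overlap, where 11.5% did. The largest differences were 0.88 for Greb1, 0.85 for Tbx3, 0.75 for Tnfsf11 and 0.69 for Pgr.

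**Figure D2:**
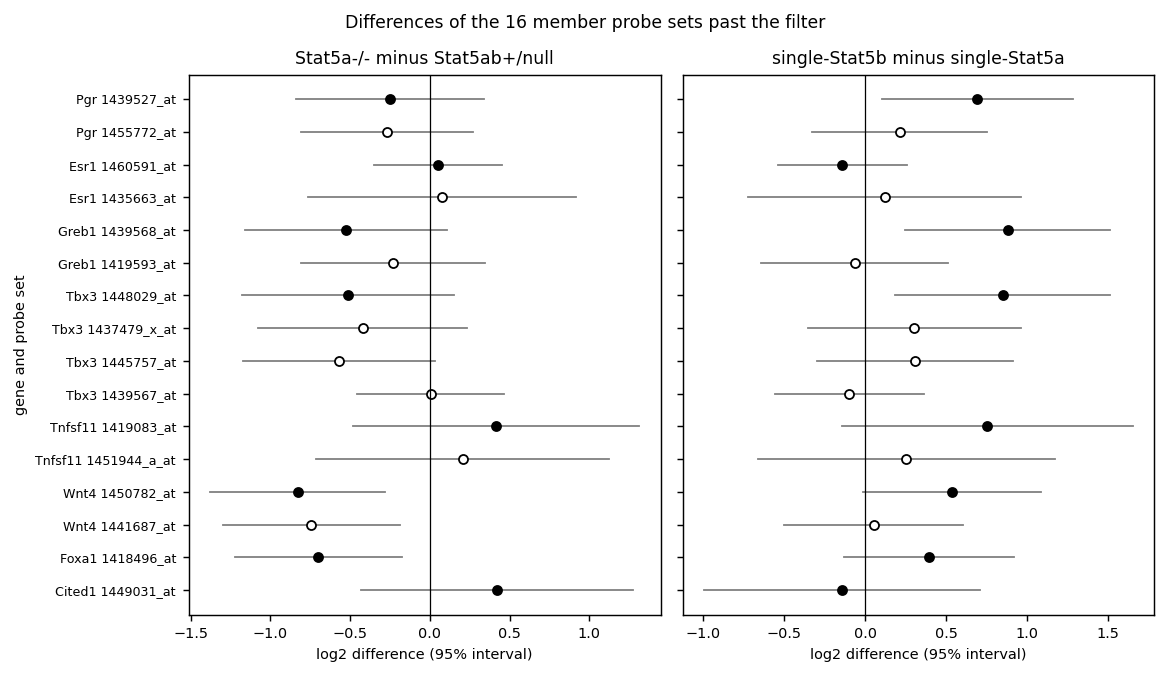
Log2 difference (x axis) of each of the 16 member probe sets past the filter (y axis) in both comparisons, with 95% intervals from limma. Filled points are each gene's brightest probe set, open points the others. Wnt4 and Foxa1 lie below 0 on the left with intervals that leave out 0 before adjustment, and on the right those of Pgr, Greb1 and Tbx3 lie above 0.

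The size of these differences depended on 1 array of each group, and first on the muscle-rich one. Array single-Stat5a 2 minus the mean of the other 2 single-Stat5a arrays was -1.24 for Tnfsf11, -0.86 for Foxa1, -0.72 for Cited1, -0.59 for Wnt4, -0.47 for Pgr and -0.42 for Tbx3. Esr1 and Greb1 stood at 0.11 and 0.13. It was the lowest of its group for 6 of the 8 members, beside 36.1% of all genes and 11 of the 12 luminal genes. Without this array the median of the 8 genes was 0.34 in place of 0.61, with 6 still above 0. Foxa1 then differed by 0.11, Wnt4 by 0.34, Tnfsf11 by 0.34, Pgr by 0.54 and Tbx3 by 0.71. Greb1 stood at 0.92 without it. Leaving out mouse 2 of single-Stat5b instead also gave a median of 0.34, with Pgr at 0.37, Tnfsf11 at 0.32, Foxa1 at 0.31 and Cited1 at 0.16, while Wnt4 stood at 0.75, Tbx3 at 0.77 and Greb1 at 1.31. With muscle and B cell means as covariates the median was 0.21, with Greb1 at 0.98, Pgr at 0.37, Wnt4 at 0.32, Tbx3 at 0.27, Tnfsf11 at 0.15 and Foxa1 at 0.045.

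General luminal genes stood on the same side in single-Stat5b, with 11 of 12 above 0 and a median of 0.32 (0.18 without the muscle-rich array), and none passed. Their mean was 10.70 to 11.22 in single-Stat5b and 10.28 to 10.85 in single-Stat5a. With every array centred on them, the median of all genes moved to -0.38, and the members' median was 0.26. On that scale Greb1 differed by 0.52, Tbx3 by 0.49, Tnfsf11 by 0.40 and Pgr by 0.34, while Wnt4 and Foxa1 stood at 0.18 and 0.04 and Esr1 and Cited1 at -0.49 and -0.50. None passed on it, and the share of the difference that goes with epithelial content was not tested further. Cells of white fat (8 of 8 genes below 0, median -0.58) and endothelium (7 of 8 below 0, median -0.55) stood on the other side.

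**Figure D3:**
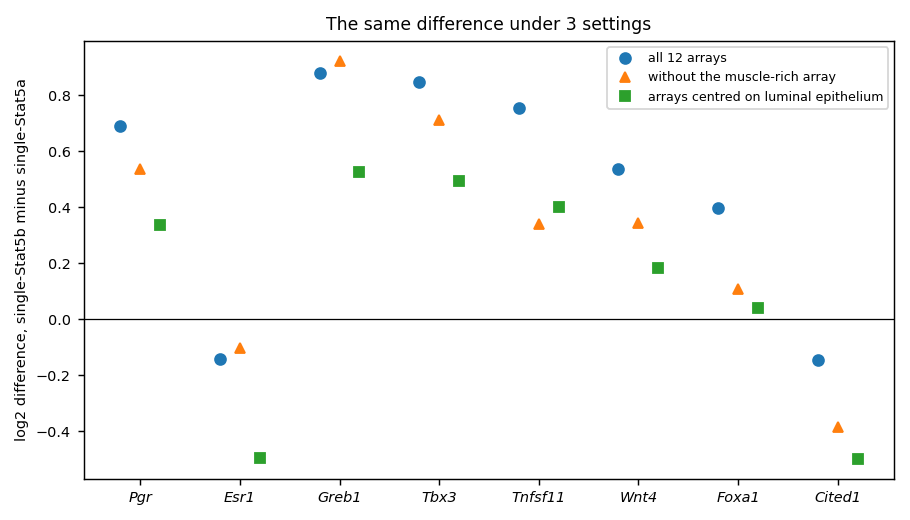
Log2 difference of single-Stat5b minus single-Stat5a (y axis) for each member gene (x axis), from all 12 arrays (circles), without the muscle-rich array single-Stat5a 2 (triangles) and with arrays centred on their luminal epithelium mean (squares). Foxa1 comes down to 0.11 and 0.04, and Greb1, Tbx3, Tnfsf11 and Pgr lie at 0.34 or above under the settings drawn. With the muscle and B cell covariates, not drawn, Tbx3 stood at 0.27 and Tnfsf11 at 0.15.

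By the brightest probe set of each gene, the 2 comparisons differed in sign for 7 of the 8 genes, all but Tnfsf11. With all 12 arrays, the second probe sets of Esr1 (0.08 and 0.12), Greb1 (-0.23 and -0.06) and Tnfsf11 (0.21 and 0.25) kept their sign. The remaining probe sets past the filter changed sign, and the share of all genes that do so was not counted. Without the muscle-rich array, these second probe sets of Esr1, Greb1 and Tnfsf11 stood at -0.10, 0.11 and -0.34 in single-Stat5b minus single-Stat5a. The difference between the comparisons was tested in the fit of all 12 arrays. Wnt4 gave 1.37 (SE 0.36, unadjusted p = 0.00224, adjusted p = 0.129) as its single-Stat5b minus single-Stat5a difference less its Stat5a-/- minus Stat5ab+/null difference. By the same measure Greb1 gave 1.41, Tbx3 1.36, Foxa1 1.09 and Pgr 0.94, while Esr1 gave -0.19 and Cited1 -0.57. Other probe sets of Greb1, Pgr, Wnt4 and Tbx3 gave smaller values, the second of Greb1 0.17, that of Pgr 0.48, that of Wnt4 0.80 and those of Tbx3 -0.10 to 0.87. None of the 16 probe sets passed (1.09% of all did), and 7 had an unadjusted p under 0.05, where 7.47% of all probe sets did. Without the muscle-rich array 4 had one, and Wnt4 stood at 1.17 and Greb1 at 1.45. Leaving out single-Stat5b mouse 2 instead put Greb1 (1.84, adjusted p = 0.00124) and Wnt4 (1.57, adjusted p = 0.0428) past the threshold. This mouse was the lowest of its group for both genes, so leaving it out had to raise both values, and these p-values are no support for them. Without it Tnfsf11 turned to -0.10 and Pgr was 0.62. With arrays centred on luminal genes the median over the 8 genes was 0.50 in place of 1.02, with Wnt4 at 0.85, Foxa1 at 0.58 and Pgr at 0.42. With the covariates Tbx3 stood at 0.54 and Pgr at 0.45. In this contrast all 12 luminal genes measured lay above 0 (median 0.54), all 12 muscle genes below (-2.75) and all 7 B and plasma cell genes above (1.72), and their part in the members' values was not tested further.

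Between the array sets, probe sets of the same gene shifted by unlike amounts. The 1-allele arrays lay outside the range of the 2-allele arrays for 4 of the 16 member probe sets, against 53.9% of all probe sets. Tnfsf11 in 1-allele minus 2-allele arrays stood at -4.54 by one probe set (1451944_a_at), with 4.97 to 6.86 on the 1-allele arrays against 10.28 to 11.54, and at -0.38 by the other. Wnt4 gave -2.67 and -0.97, and Pgr 1.79 and 0.50 by its probe sets past the filter. Tbx3 gave 2.31 by its brightest probe set and -0.22 to 0.26 by the rest. Cited1 stood at -1.04, Foxa1 at 0.08, Esr1 at 0.28 and Greb1 at -0.23 by the brightest probe set of each. Set differences of these genes therefore have no single value, and the part played by allele total was not tested.

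**Figure D4:**
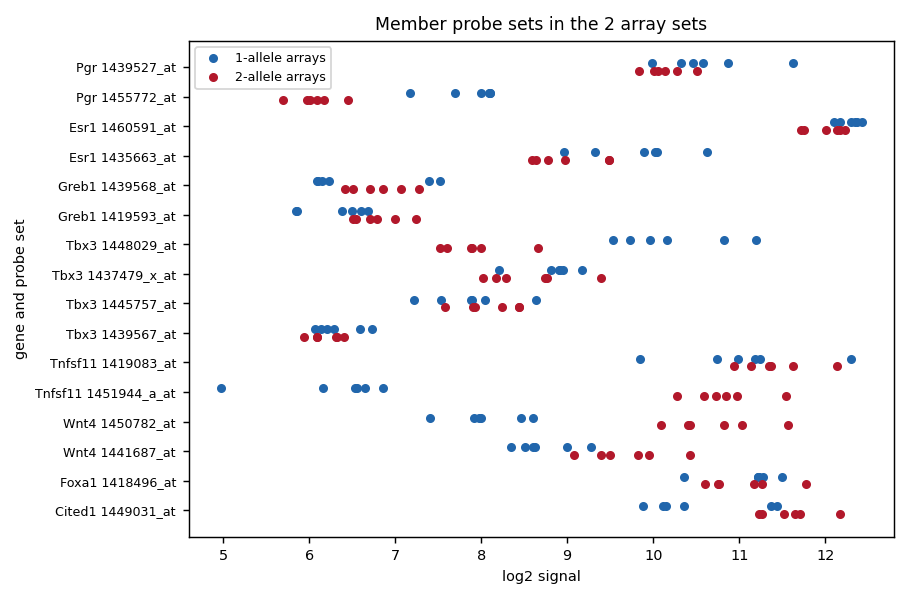
Log2 signal (x axis) of the 16 member probe sets past the filter (y axis) on the 6 arrays of single-Stat5b and single-Stat5a (blue, 1-allele) and the 6 of Stat5a-/- and Stat5ab+/null (red, 2-allele). The 4 probe sets whose sets do not overlap are one each of Pgr, Tbx3, Tnfsf11 and Wnt4, and a second probe set of each of these genes overlaps.

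Among other genes of hormone-sensing cells, 9 of 12 listed were measured, and 7 of the 9 lay below 0 in Stat5a-/- minus Stat5ab+/null (median -0.31), with none past the test. Gata3, the master factor of luminal fate, averaged 10.14 ± 0.22 in the arrays labelled Stat5a-/- and 10.87 ± 0.05 in Stat5ab+/null (SD, n = 3 each), without overlap (-0.73, adjusted p = 1.00). Msx2, a homeobox gene of the gland, differed by -0.59. In single-Stat5b minus single-Stat5a, 7 of the 9 lay above 0 (median 0.17) and Wnt5a, a noncanonical Wnt ligand, was the 1 gene that fell, by 1.37 (adjusted p = 0.00251). The other 3 Wnt5a probe sets gave 0.11 to 1.20, none passing, so the gene has no agreed direction.

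Genes that receive or relay the signals showed few calls. Over the 6 pathway lists, of 7 to 19 measured genes each, 4 genes fell and none rose in single-Stat5b minus single-Stat5a. Each fell by 1 probe set, where 1.81% of all probe sets fell. These were Wnt5a, the Wnt receptor Fzd2 (-1.14, adjusted p = 0.00228, but 0.0591 when the 1-allele groups were fitted by themselves), Adam17, the protease that frees amphiregulin (-1.40, adjusted p = 0.00329), and Stat5a itself. Single-Stat5b mice lack Stat5a by label, so its fall is no result about the pathway. The other Fzd2 probe sets gave 0.11 and -0.30 and those of Adam17 both stood near 0 (-0.09 and 0.00), with none passing. A pair of uncalled genes passed with 1 array left out, and Lgr5 is named after its values were seen. Lgr5, a Wnt-pathway receptor of stem cells, stood at -1.38 (adjusted p = 0.0909) and without the muscle-rich array at -1.92 (adjusted p = 0.00204). The cyclin gene Ccnd1 stood at -0.50 (adjusted p = 0.551) and without mouse 3 of single-Stat5b at -0.86 (adjusted p = 0.0400). Both fits were picked because the gene passed in them, so these p-values are no support. No listed gene passed in Stat5a-/- minus Stat5ab+/null.

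By list, the RANK pathway had 11 of 14 genes measured, with 3 above 0 and a median of -0.13 in Stat5a-/- minus Stat5ab+/null and 4 above 0 and -0.04 in single-Stat5b minus single-Stat5a. Tnfrsf11a, the gene of RANK, averaged 6.05 ± 0.09 in the arrays labelled Stat5a-/- and 6.60 ± 0.35 in Stat5ab+/null (-0.55), and Nfkb2 differed by -0.56. In single-Stat5b minus single-Stat5a, Ccnd1 differed by -0.50 (other probe sets 0.12 and -0.25) and the kinase gene Map3k14 by -0.48. Wnt reception and response genes (19 of 20 measured) had medians of -0.01 and -0.06, with Lrp5 at -0.44 and Lgr4 at 0.39 between the 2-allele groups. None of these named differences passed.

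Steroid receptor cofactors and chaperones (8 of 11 measured) had medians of -0.13 in Stat5a-/- minus Stat5ab+/null and -0.01 in single-Stat5b minus single-Stat5a. By the brightest probe set of each gene, Pelp1 at -0.30 and Ncoa2 at 0.29 differed most in the first, and Nrip1 at -0.37 and Fkbp5 at -0.24 in the second. Other probe sets gave -0.61 for Pelp1, -0.45 and -0.19 for Ncoa2, -0.41 to 0.04 for Nrip1 and 0.60 for Fkbp5, so that Ncoa2 and Fkbp5 have no single direction. The 7 genes of amphiregulin release and reception had medians of -0.17 and 0.23, with Erbb2 at -0.37 and Fgfr2 at -0.30 between the 2-allele groups. Without the muscle-rich array the 0.23 turned to -0.03, with 3 of the 7 above 0 in place of 5. The 8 genes of the prolactin receptor relay had medians of -0.09 and -0.11, with Socs3 at -0.58 between the 2-allele groups. Apart from Adam17 and Stat5a, no gene of these 3 lists passed.

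Likeness between genes was described by Pearson r over the 12 arrays after each set's mean was subtracted, which leaves tissue makeup as a shared source, and without a test. Wnt4 and Foxa1 tracked each other most closely among the members (r = 0.84), followed by Greb1 with Wnt4 (0.77), Pgr with Tbx3 (0.71) and Foxa1 with Tbx3 (0.70). Esr1 followed no other member over the 12 arrays (-0.42 to 0.00). In the 1-allele arrays Esr1 ran opposite to Foxa1 (-0.75), Pgr (-0.73) and Tnfsf11 (-0.70), beside 0.07, -0.28 and 0.49 in the 2-allele arrays. Pgr and Tnfsf11 tracked in the 1-allele arrays (r = 0.93) and ran opposite in the 2-allele arrays (-0.77), with 6 arrays each. Over all genes, the nearest to Wnt4 were Smarcd1 (0.95), Rab3ip (0.93) and Prom2 (0.92). The nearest to Tnfsf11 were Trps1 (0.96), Zfp937 (0.95) and Hmcn1 (0.94), and the nearest to Pgr were Htr1a (0.94), Twist1 (0.93) and Ttc19 (0.93).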

How the data were processed

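Values are log2 signals per probe set as deposited by the authors. RMA summarisation and the Partek software were used, per the submitters' processing notes, with versions, settings and genome build unstated there. Array medians ran from 7.28 to 7.50. Genotype groups follow the genotype labels, and replicates were numbered in record order. Gene symbols came from the platform annotation, in which 34945 probe sets named 1 gene, 932 several and 9160 none. A gene's value is that of its probe set with the highest mean.

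Linear models (limma 3.58.1, run in R 4.3.3) covered every probe set past the 30th percentile of mean signal, across the 4 genotypes, with moderated two-sided tests and Benjamini-Hochberg adjustment over 31526 probe sets. The fit was tested on simulated data. Precision is limited by having 3 arrays of each genotype. Members, lists and tests were chosen with earlier results of these data known. Named genes are all members, Stat5a and Stat5b, and from each of 6 pathway lists the called genes (up to 4) or else the 2 largest differences per comparison. Lgr5 and the genes named from cell type lists fall outside this rule. 11 further lists mark cell types. Those not named in the results had medians, for Stat5a-/- minus Stat5ab+/null and for single-Stat5b minus single-Stat5a, of 0.09 and -0.05 (basal epithelium), 0.56 and 0.23 (alveolar luminal), 0.30 and -2.27 (skeletal muscle), -1.45 and 0.22 (B and plasma cells), -0.43 and 0.26 (T cells), -0.94 and -0.53 (lymph node stroma), 0.04 and 0.01 (fibroblasts), -0.22 and 0.19 (skin keratinocytes), and in the first comparison 0.00 (white adipocytes) and -0.15 (endothelium). Alternatives covered the filter, normalization between arrays, centring on luminal genes, one probe set per gene, the variance model, array weights, the groups fitted, covariates and arrays left out.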

Additional observations from a re-analysis of the deposited data

How the results depend on the processing

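No member passed the test, so the results here are directions and sizes. For Stat5a-/- minus Stat5ab+/null, the 8 member genes kept direction and stayed uncalled in 179 of 183 values over the alternatives; the 4 others were of Esr1 (-0.0505 with muscle and B cell means as covariates; -0.0620 to 0.21 over single arrays left out). For single-Stat5b minus single-Stat5a this held for 174 of 183. Of the rest, 5 changed sign: Tnfsf11 at -0.10 with 4 arrays left out together (mouse 3 of Stat5a-/- and mouse 2 of every other genotype), and Cited1 at 0.0910 with the covariates and -0.62 to 0.23 over single arrays left out. The other 4 gained a call: Greb1 with array weights (1.16), with the 4 arrays left out (1.36) and without single-Stat5b 2 (1.31), and Tbx3 without single-Stat5b 3 (1.19). Each mouse left out singly here was the lowest of its group for that gene, so those calls are no support. The median over member genes, 0.61, was 0.26 on the luminal scale, 0.21 with the covariates, 0.12 with the 4 arrays left out and 0.34 to 0.72 over single arrays left out; the cause was not tested. For the difference between the comparisons 164 of 175 values held; Tnfsf11 (0.34) turned to -0.18 on the luminal scale, -0.43 with the covariates, -0.82 with the 4 arrays left out and -0.10 to 0.68 over single arrays left out, and 6 values of Greb1, Tbx3 and Wnt4 gained a call. Among pathway genes, Fkbp5 turned to 0.12 with the 4 arrays left out (-0.48 to 0.0862 over single arrays left out).

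Member probe sets called numbered 0, and in single-Stat5b minus single-Stat5a 1 with array weights, 1 with the 4 arrays left out and 0 to 1 over single arrays left out; for the difference between the comparisons these were 2, 1 and 0 to 2. Over all probe sets, Stat5a-/- minus Stat5ab+/null had 3 calls, against 7 on the luminal scale, 1 with one probe set per gene, 430 with array weights, 0 with the covariates, 0 with the 4 arrays left out and 0 to 6 over single arrays left out. Single-Stat5b minus single-Stat5a had 912, against 534 with the 50th percentile filter, 310 with one probe set per gene, 478 in a fit of these groups alone, 572 with the covariates and 668 to 2015 over single arrays left out. The difference between the comparisons had 345, against 202 with that filter, 110 with one probe set per gene, 1018 with array weights, 199 with the covariates, 218 with the 4 arrays left out and 228 to 521 over single arrays left out. Fewer probe sets or arrays enter several of these settings. No paired analysis was possible because the labels give no numbers shared between the groups.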

Other observations

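Genes of the neighbouring alveolar luminal cells, which receive the paracrine signals, lay mostly above 0 in Stat5a-/- minus Stat5ab+/null. The members lay on both sides. Of the 8 members, 5 lay below 0, among them Wnt4 and Foxa1. The 3 above 0 were Cited1 (0.42), Tnfsf11 (0.41) and Esr1 (0.05). Of 8 alveolar genes measured, 7 lay above 0 and 1 below, with a median of 0.56, beside -0.08 over all genes. None passed limma (adjusted p = 1.00). The casein gene Csn2 averaged 6.76 ± 0.53 in the arrays labelled Stat5a-/- and 5.10 ± 0.43 in Stat5ab+/null (SD, n = 3 each), a difference of 1.66. Its Stat5ab+/null mean is a low signal, under the filter level of log2 6.04. Kit, a receptor of luminal progenitors, averaged 12.36 ± 0.22 in the arrays labelled Stat5a-/- and 11.53 ± 0.28 in Stat5ab+/null, a difference of 0.83. Csn3, another casein gene, differed by 0.80, Ehf, an epithelial ETS factor, by 0.77, and Elf5, the ETS factor of alveolar fate, by 0.34. The alveolar genes named here were picked outside the rule used for the pathway lists. All of them lie above 0, and the 1 of the 8 below 0 is not among them. In single-Stat5b minus single-Stat5a, 5 of the 8 lay above 0, with a median of 0.23 that stood at -0.01 without the muscle-rich array.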
